A study of Mus musculus with 6 samples.

Results

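The miR-23, miR-27 and miR-24 microRNAs (miRNAs) are made from a pair of mouse gene clusters, and all assays of them on a rodent PCR panel are described here in the prefrontal cortex of BTBR and C57BL/6J mice. The assays were found by name: those for miR-23a, miR-23b, miR-24, miR-27a, miR-27b or miR-189, whatever their species prefix, strand mark or copy number, numbered 11 of the panel's 750 miRNA assays. Of these, 5 belong to pool A and 6 to pool B, the pool being the letter that ends an assay's identifier. The name miR-189 is an old one for a strand of miR-24-1, and the RefSeq gene table lists it as a synonym of Mir24-1. The family was singled out with strain results of these mice already known, so the strain differences of its members are given as a description with standard errors, and counts of members past a threshold are given only beside the share of the whole panel.

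Samples came from 3 BTBR mice (genotype label BTBR T+ Itpr3tf/J, an inbred strain studied for its social and repetitive behaviour) and 3 wild-type C57BL/6J mice. All were untreated males aged 5 months, with 1 sample of whole prefrontal cortex per mouse. The strain background field reads C57BL/6J for the BTBR samples as well, so the strain was taken from their titles. Levels were read as cycle thresholds, that is how many PCR cycles an assay needed to reach a fixed fluorescence. A later cycle stands for less RNA, by a factor of 2 per cycle at full efficiency, and 40 was read as undetermined. The tissue is a mixture of cells, in which fewer cells of a type and less RNA per cell cannot be told apart.

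In each cluster 3 hairpins are cut from a shared precursor, and each hairpin yields a strand that is usually the more abundant one (the 3p arm in this family) and a partner from the 5p arm, marked # on the panel. A miRNA finds its targets mainly through its seed, bases 2 to 8 from the 5′ end. The family is best known from blood vessels, where miR-23 and miR-27 promote the growth of new vessels, and from blood and immune cells. In brain, miR-23a has been tied to oligodendrocyte maturation and myelin through its target lamin B1, and miR-27 to fat metabolism and neuronal cell death.

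The mouse strands are shown because the assays differ mainly in which copy and which arm they read. RefSeq (build GRCm38.p6) held 9 of the 10 strands looked up, with mmu-miR-23b-3p the one named only; the sequences the assays themselves were designed on were not used here. Capitals mark the seed.
mmu-miR-23a-3p: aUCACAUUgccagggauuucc
mmu-miR-27a-3p: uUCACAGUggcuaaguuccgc
mmu-miR-27b-3p: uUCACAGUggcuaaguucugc
mmu-miR-24-3p: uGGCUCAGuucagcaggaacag
mmu-miR-24-1-5p: gUGCCUACugagcugauaucagu
mmu-miR-24-2-5p: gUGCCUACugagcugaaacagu
mmu-miR-27a-5p: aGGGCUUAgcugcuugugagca
mmu-miR-27b-5p: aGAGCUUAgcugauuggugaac
mmu-miR-23a-5p: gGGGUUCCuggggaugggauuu
The strands miR-27a-3p and miR-27b-3p share their seed and differ by C19U, counted from the 5′ end with the base of miR-27a first. The strand miR-24-3p is the same sequence from both copies, so no assay can say which copy it came from. The 5p partners of the copies share their seed and their first 16 bases and then part, in 23 bases for miR-24-1-5p and 22 for miR-24-2-5p.

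The hairpins Mir23a, Mir27a and Mir24-2 lie on the plus strand within 404 bases at chr8:84208518-84208921. The hairpins Mir23b, Mir27b and Mir24-1 lie on the plus strand within 792 bases at chr13:63300484-63301275, inside the span of the protein-coding gene Aopep (chr13:62964893-63326096), whose exons and introns were not used here. Each miR-24 hairpin overlaps an annotated miR-3074 hairpin (Mir3074-2 on chromosome 8 and Mir3074-1 on chromosome 13). The hairpins of both miR-24 copies are shown with the 5p strand in capitals, the strand on which their assays can differ.
Mir24-1: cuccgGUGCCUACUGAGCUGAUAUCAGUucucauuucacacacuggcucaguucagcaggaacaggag
Mir24-2: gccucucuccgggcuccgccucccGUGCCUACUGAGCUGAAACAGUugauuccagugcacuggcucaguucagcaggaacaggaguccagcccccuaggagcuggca

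The samples differed in how much of the panel they read, and most of all in pool A. Of the 377 pool A assays, 244, 243 and 212 gave a reading in BTBR replicates 1, 2 and 3, against 176, 180 and 175 in C57BL/6J replicates 1, 2 and 3. Over both pools the counts were 358, 404 and 347 of 750 in BTBR and 305, 301 and 289 in C57BL/6J. The plant control assay gave no reading in any sample. The abundant control RNA U6 was read in all 16 of its spots in each BTBR sample but in 13, 13 and 11 of 16 in C57BL/6J replicates 1, 2 and 3, at medians of 14.14, 13.61 and 14.26 cycles in BTBR and 14.25, 14.50 and 14.24 in C57BL/6J. BTBR replicate 3 was closer to C57BL/6J than to its own strain. Over the 237 assays read in all samples its raw thresholds correlated at 0.918 and 0.911 with the other BTBR replicates and at 0.937, 0.964 and 0.957 with the C57BL/6J replicates (Pearson r across assays, which are not independent). Neuronal miRNAs were present in both strains, with 5 to 6 of 7 neuron assays read in each BTBR sample and 6 of 7 in each C57BL/6J sample. These counts cover different assays. The assay hsa-miR-9 was read in BTBR replicates 1 and 2 (16.76 and 13.90 cycles) and in no C57BL/6J sample. In contrast, hsa-miR-124# was read in every C57BL/6J sample and no BTBR sample, and the remaining neuron assays were read throughout. Of these, mmu-miR-124a came earlier in every BTBR sample (20.78, 19.79 and 23.29 cycles, against 31.40, 24.83 and 24.44 in C57BL/6J). The assay hsa-miR-128a came later in every BTBR sample (14.67, 14.91 and 14.47 cycles, against 13.89, 13.99 and 13.81), and the others overlapped between strains. Per sample, BTBR and C57BL/6J gave readings for 5 to 6 and 4 to 5 of 6 oligodendrocyte assays, 2 and 1 to 2 of 2 endothelial assays, 5 to 6 and 4 of 9 mural and mesenchymal assays, and 2 to 3 and 0 to 3 of 4 myeloid assays. Choroid plexus and ependyma assays differed most, with 5 to 9 of 13 read per BTBR sample and 1 to 2 of 13 per C57BL/6J sample, and the part of these cells in the family's values was not tested.

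Detection itself split the family. The assays hsa-miR-27a, hsa-miR-189, hsa-miR-27a# and mmu-miR-24-2# were read in all 6 samples, like 31.6% of the panel, and hsa-miR-24 in 5. The assay hsa-miR-27b was read in BTBR alone (3 of 3), while hsa-miR-23a and rno-miR-24-1# were read in C57BL/6J alone (3 of 3 each). The assay hsa-miR-23b was read in 2 BTBR samples, hsa-miR-27b# in 1, and hsa-miR-23a# in none, like 38.4% of the panel. Of the 750 assays, 3.73% were read in every BTBR and no C57BL/6J sample, and 26 of those 28 were in pool A (6.9% of that pool), like miR-27b. The reverse pattern held for 0.4%, that is 3 assays: miR-23a, miR-24-1# and hsa-miR-124#, the last named after its values were seen. Spots of U6 also went unread in C57BL/6J alone, and the part of such lost wells, or of the array layout, in these detection patterns was not tested. These patterns were among the values known when the family was chosen, and nothing is read from their number.

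**Figure D1:**
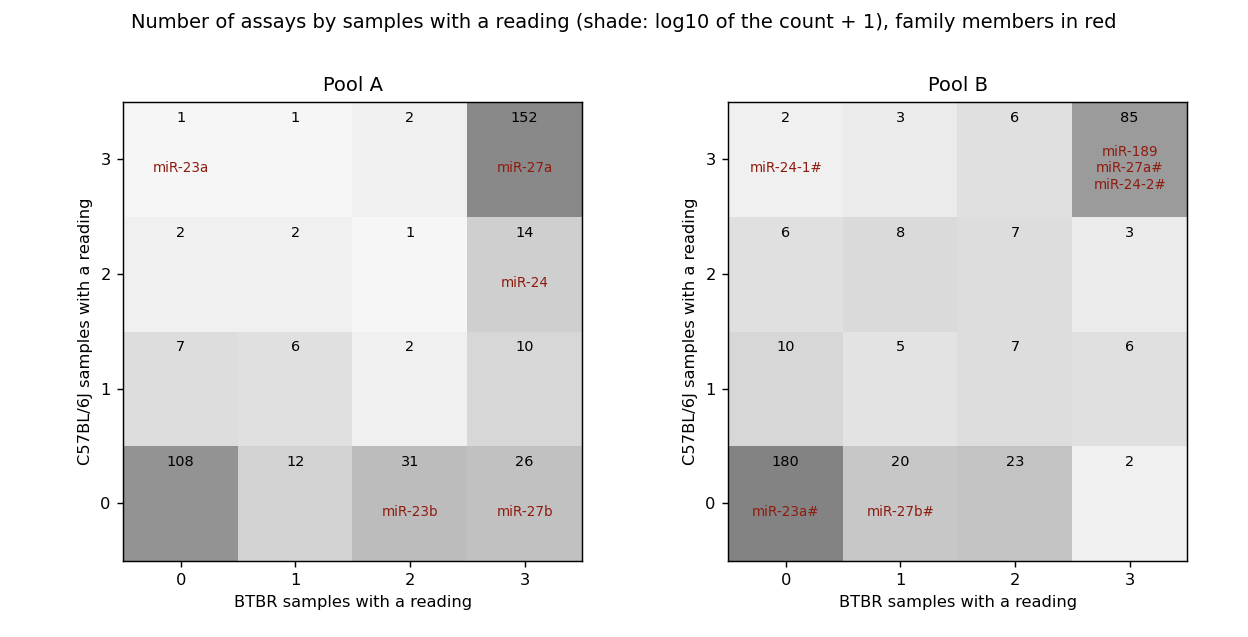
Each cell gives the number of assays read in that many BTBR samples (horizontal axis, 0 to 3) and C57BL/6J samples (vertical axis, 0 to 3), separately for pools A and B, with darker shade for more assays and family members named in red. In pool A 26 assays lie in the corner of BTBR alone, with miR-27b, and 1 assay, miR-23a, in that of C57BL/6J alone.

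The assays of the 3p strands from chromosome 8 did not share a detection pattern. The assay hsa-miR-23a, a strand whose targets include lamin B1, was undetermined in BTBR replicates 1, 2 and 3 and had raw thresholds of 22.16, 21.09 and 20.24 cycles in C57BL/6J replicates 1, 2 and 3. In C57BL/6J these were readings from the middle of the pool, ranked 91 of 176, 79 of 180 and 71 of 175 from the earliest. Its cluster mate hsa-miR-27a, which acts in fat cell formation and vessel growth, had 20.83, 20.94 and 20.35 cycles in BTBR, against 20.14, 20.23 and 19.38 cycles in C57BL/6J. Every BTBR threshold was later than every C57BL/6J threshold, as it was for 18.1% of the 237 assays read throughout. The means were 20.71 ± 0.314 cycles in BTBR and 19.92 ± 0.473 in C57BL/6J (SD, n = 3 each), which gives a log2 change of -0.79 (standard error 0.36), or 1.73-fold less in BTBR. In the BTBR samples, where miR-23a gave no reading, miR-27a from the same cluster was read in every sample. Its log2 change was larger on scaled thresholds, at -1.18 with the mean of the 237 assays read throughout set equal in all samples (the global mean scale) and -2.03 on the authors' normalized values.

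In C57BL/6J the gap between these mates, hsa-miR-23a minus hsa-miR-27a, was 2.02, 0.86 and 0.86 cycles. A gap of raw thresholds within a sample is not altered by a scaling constant for that sample, but it is not a ratio of molecules, because assays differ in efficiency. No such gap exists in BTBR.

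The 3p strands made only from the chromosome 13 cluster were read in BTBR samples and in no C57BL/6J sample. Of the 377 pool A assays, 26 were read in 3 BTBR samples and no C57BL/6J sample, like miR-27b. Another 31 were read in 2 BTBR samples and no C57BL/6J sample, like miR-23b. The assay hsa-miR-27b was read at 18.43, 18.69 and 17.77 cycles in BTBR replicates 1, 2 and 3, ranked 56 of 244, 71 of 243 and 48 of 212 in pool A, and was undetermined in C57BL/6J replicates 1, 2 and 3. It shares its seed with miR-27a, and in BTBR it crossed the threshold earlier than miR-27a by a steady amount, the gap (27b minus 27a) being -2.40, -2.25 and -2.58 cycles. The seed of miR-27 was read in both strains, through miR-27a and miR-27b in BTBR and through miR-27a alone in C57BL/6J. The assay hsa-miR-23b gave 26.33 and 24.41 cycles in BTBR replicates 1 and 2, later than miR-27b by 7.91 and 5.72 cycles. It was undetermined in BTBR replicate 3 and in all C57BL/6J samples. A fold change was not computed for assays with no reading in a strain, since an undetermined well sets no level.

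**Figure D2:**
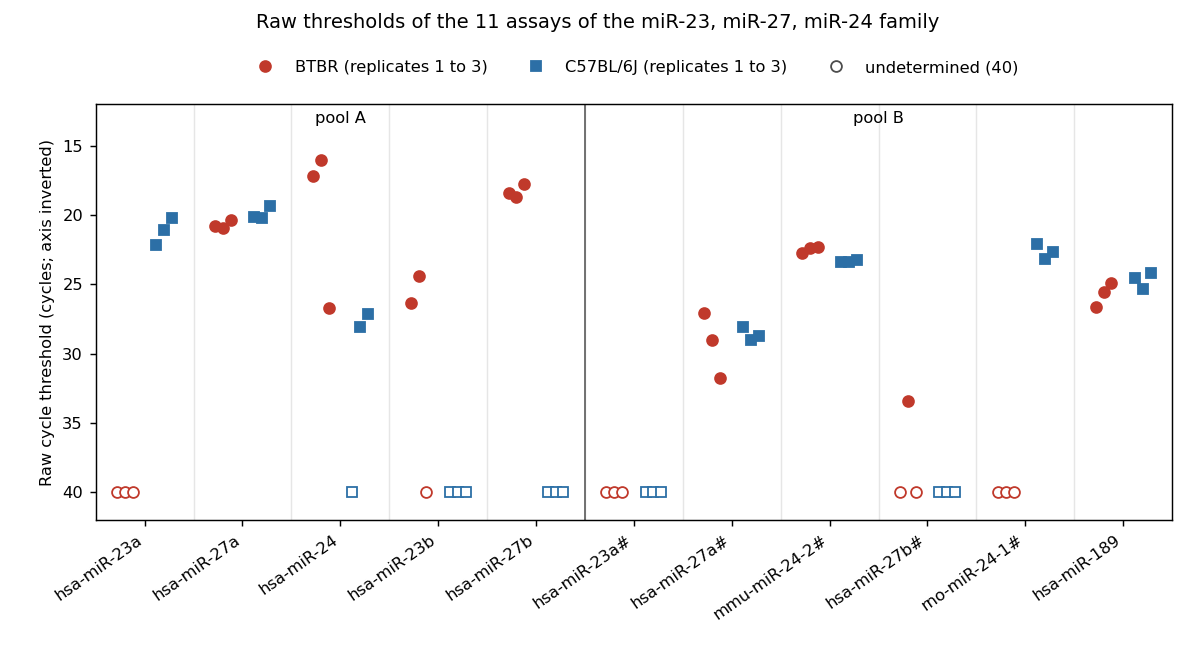
Raw cycle thresholds (vertical axis, inverted so that more RNA is higher) of the 11 assays, with BTBR replicates as red circles left of C57BL/6J replicates as blue squares, and open symbols at 40 for undetermined wells. The assay miR-27b is read at 17.77 to 18.69 cycles in BTBR and in no C57BL/6J sample, while miR-23a and miR-24-1# are read in C57BL/6J only.

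The assay hsa-miR-24, the 3p strand that both clusters make and that is known for restraining the cell cycle and cell death, had widely spread readings within BTBR. Its raw thresholds were 17.20, 16.06 and 26.68 cycles in BTBR replicates 1, 2 and 3, and 28.08 and 27.14 cycles in C57BL/6J replicates 2 and 3, with replicate 1 undetermined. In BTBR replicates 1 and 2 it ranked 35 of 244 and 25 of 243 in its pool, but 178 of 212 in BTBR replicate 3, near the end of the pool as in C57BL/6J (165 of 180 and 152 of 175). BTBR replicate 3 was within 1 cycle of the nearer C57BL/6J reading. On the authors' normalized values the means were 20.48 ± 6.6 cycles in BTBR (SD, n = 3) and 26.57 ± 0.81 in C57BL/6J (SD, n = 2), which gives a log2 change of 6.09 (standard error 3.88), the undetermined C57BL/6J sample being dropped from the fit. Without BTBR replicate 3 the change was 9.89 (standard error 0.59). It was 4.38 (standard error 4.23) without BTBR replicate 1 and 4.0 (standard error 4.03) without BTBR replicate 2, so the value rests on which BTBR samples are used.

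BTBR replicate 3 was later than both other BTBR replicates by at least 5 cycles (a margin chosen after seeing the data) for 13 of the 298 assays read in every BTBR sample, or 4.36%, 10 of them in pool A and hsa-miR-24 among them. Neither other BTBR replicate was later by that much for any assay. Among the 252 assays read in every C57BL/6J sample, replicate 1 of that strain was later by that much for 5 (1.98%, 4 of them in pool A). C57BL/6J replicate 3 was so for 1 (0.397%) and replicate 2 for none. The gap between hsa-miR-24 and hsa-miR-27a, both in pool A, was -3.63 and -4.88 cycles in BTBR replicates 1 and 2 and 6.33 in replicate 3, against 7.85 and 7.77 in C57BL/6J replicates 2 and 3. In this gap BTBR replicate 3 lay with C57BL/6J, while the BTBR thresholds of miR-27a itself span under 1 cycle.

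The 5p strands are where miR-189 belongs. The assay hsa-miR-189 crossed the raw threshold at 26.63, 25.55 and 24.94 cycles in BTBR replicates 1, 2 and 3, against 24.52, 25.35 and 24.22 cycles in C57BL/6J replicates 1, 2 and 3. The strains overlapped, with BTBR replicate 3 earlier than C57BL/6J replicate 2. On the authors' normalized values the same wells stood at 28.25, 27.91 and 25.72 cycles in BTBR and 23.64, 24.51 and 23.44 in C57BL/6J, and there the strains did not overlap, BTBR being later throughout, as for 57.7% of the assays with readings in all samples of that table. The log2 change was -3.43 (standard error 0.75) on normalized values, or 10.8-fold less in BTBR. It was -1.01 (standard error 0.56) on raw thresholds, or 2.02-fold less. On the global mean scale it was -1.41 (standard error 0.60).

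The assay rno-miR-24-1# is named for the same strand as miR-189 and did not follow it. It was undetermined in BTBR replicates 1, 2 and 3 and was read at 22.07, 23.15 and 22.64 cycles in C57BL/6J replicates 1, 2 and 3. In C57BL/6J it came earlier than hsa-miR-189, which lagged it by 2.45, 2.20 and 1.58 cycles in the same pool. In BTBR the later of these assays gave 3 readings and the earlier one none. Among 62 names held by more than 1 assay apart from species and pool, 29 had an assay read in all samples. In 4 of those 29 another assay of the name was read in every BTBR sample and no C57BL/6J sample. That is the reverse of rno-miR-24-1#, and none of the 29 had an assay with its pattern.

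The assay mmu-miR-24-2#, for the 5p strand of the other copy, had raw thresholds of 22.78, 22.38 and 22.34 cycles in BTBR, against 23.36, 23.38 and 23.23 cycles in C57BL/6J. Every BTBR reading was earlier, a pattern found for 14.3% of the 237 assays. The log2 change was 0.83 (standard error 0.27) on raw thresholds and 0.43 (standard error 0.36) on the global mean scale. On normalized values it was -0.67 (standard error 0.39), so its direction depends on the scaling, and there it lay 0.46 above the median change of the panel.

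Set against each other within a sample, hsa-miR-189 and mmu-miR-24-2#, for the 5p partners of the miR-24 copies, lay further apart in BTBR than in C57BL/6J. This holds for hsa-miR-189 alone. The other assay of its strand, rno-miR-24-1#, gave no BTBR reading. In every C57BL/6J sample it came earlier than mmu-miR-24-2# (22.07, 23.15 and 22.64 against 23.36, 23.38 and 23.23 cycles), the reverse of the order with hsa-miR-189. The gap hsa-miR-189 minus mmu-miR-24-2# (both pool B) was 3.86, 3.17 and 2.61 cycles in BTBR and 1.16, 1.97 and 0.99 cycles in C57BL/6J. The means were 3.21 ± 0.625 cycles in BTBR and 1.37 ± 0.525 in C57BL/6J (SD, n = 3 each), a difference of 1.84 cycles, with no overlap. Leaving out any 1 sample gave 1.52 to 2.14 cycles, the highest being reached both without BTBR replicate 3 and without C57BL/6J replicate 2. For scale, 20.9% of the 3570 pairs of pool B assays read throughout shifted by at least as much between strains, the median pair by 0.91 cycles, and 20.6% did not overlap.

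**Figure D3:**
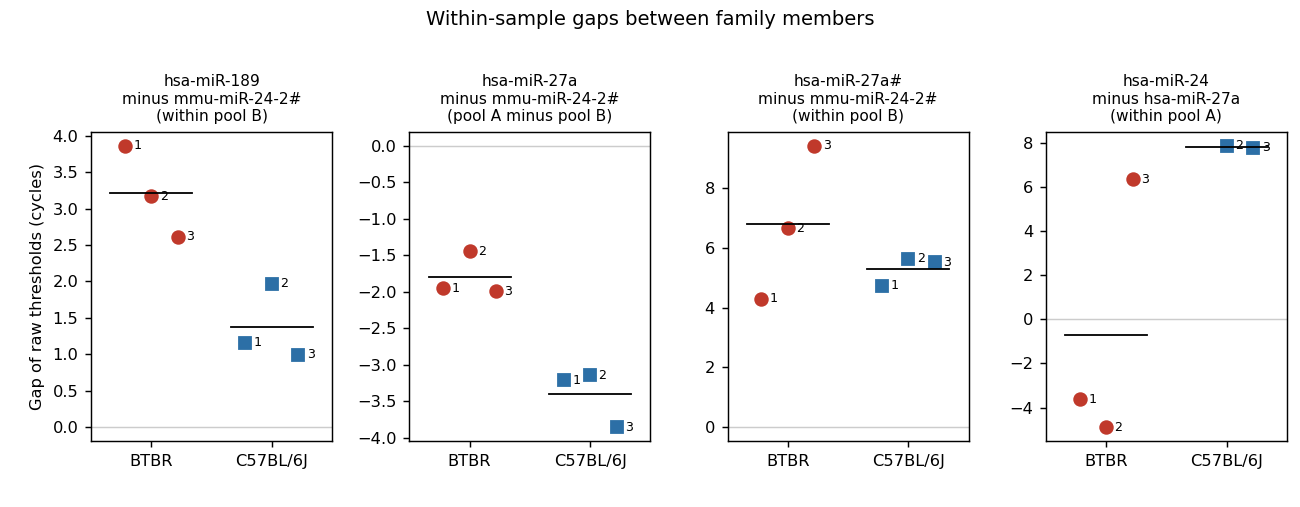
Within-sample gaps of raw thresholds in cycles (vertical axis, a separate scale in each panel) for BTBR and C57BL/6J, with replicates numbered and a line at each mean. The gap of miR-189 to miR-24-2# is 2.61 to 3.86 cycles in BTBR and 0.99 to 1.97 in C57BL/6J, and in the gap of miR-24 to miR-27a BTBR replicate 3 lies with C57BL/6J.

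Within the chromosome 8 cluster, hsa-miR-27a minus mmu-miR-24-2# was -1.95, -1.44 and -1.99 cycles in BTBR and -3.21, -3.14 and -3.85 in C57BL/6J, a difference of 1.61 cycles with no overlap. Of the 12920 pairs of a pool A and a pool B assay read throughout, 31.1% shifted by at least as much and 28.5% did not overlap. These assays lie in different pools, and with each pool centred on its own mean the difference was 1.84. The assay hsa-miR-27a#, the 5p partner of miR-27a, was late and scattered, with 27.07, 29.03 and 31.74 cycles in BTBR and 28.09, 29.01 and 28.74 in C57BL/6J. On the global mean scale its change was -1.06 (standard error 1.17), and 0.04 (standard error 0.90) without BTBR replicate 3. In the normalized table BTBR replicates 2 and 3 stand at 40 for it despite their raw readings, so it was not fitted there. With the readings above the limit rebuilt from the inferred steps, where 40 takes part in the ranks, the change was -7.02 (standard error 2.29), and the authors' deposited table, with 40 counted, gives 9.05 cycles later in BTBR. The value for this assay depends on how late and undetermined wells are handled. The other 5p assays were at the edge of detection: hsa-miR-27b# gave 33.41 cycles in BTBR replicate 2, ranked 159 of 161, and hsa-miR-23a# gave no reading.

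The size of the family's strain differences depended on the scale, and so did the panel's. Its median fitted change (log2) was -1.13 over the 231 assays fitted on normalized values and -0.40 over the 270 fitted on the global mean scale. Of the 4 family assays fitted on normalized values, hsa-miR-27a (log2 change -2.03, standard error 0.53) and hsa-miR-189 were lower past an adjusted p of 0.05 in limma, and hsa-miR-24 and mmu-miR-24-2# did not pass. Both calls are lost without BTBR replicate 1, BTBR replicate 2, C57BL/6J replicate 2 or C57BL/6J replicate 3, with changes of -1.57 to -2.17 for miR-27a and -2.95 to -3.75 for miR-189. Centring normalized values on sample medians also ends both, at -0.86 for miR-27a and -2.26 for miR-189, and keeping 40 as a value ends that of miR-27a at an adjusted p of 0.0501 in limma. Over the panel 36.8% of assays passed, 35.5% as lower and 1.3% as higher, and since the family was chosen on this contrast nothing is read from its count. Relative to the panel median, miR-27a lay at -0.91 and miR-189 at -2.30. The change of miR-189 was lower than that of all but 3 of the 231 assays, and that of miR-24 higher than all but 1. The move between scales differed by assay, so a distance to 1 panel median does not take it out. From the global mean scale to normalized values, the early hsa-miR-128a (13.81 to 14.91 raw cycles) went from -1.18 to -0.60. In the same step miR-27a went from -1.18 to -2.03 and the later miR-189 from -1.41 to -3.43. The part of late thresholds in the place of miR-189 was not tested.

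On the global mean scale 0% of the 270 assays passed in limma (71 had an unadjusted p under 0.05), and 5 family assays were fitted. There miR-27a had a log2 change of -1.18 (standard error 0.43), with means of 20.90 ± 0.628 cycles in BTBR and 19.72 ± 0.291 in C57BL/6J (SD, n = 3 each). Without BTBR replicate 3 the values were -1.49 for miR-27a, -1.93 for miR-189, 10.64 for miR-24 and 0.22 for miR-24-2#. In that fit 57 of 258 assays passed, or 22.1%, with miR-24, miR-27a and miR-189 among them. Leaving out any other single sample on this scale gave 0 passing assays in limma (35 to 67 at an unadjusted p under 0.05), so the calls appear only when the BTBR sample closest to C57BL/6J is dropped. Without BTBR replicate 1 the values were -1.18 for miR-27a and -1.01 for miR-189. The position of miR-189 in the panel was less extreme on this scale, where 25 of 270 assays had a lower change.

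**Figure D4:**
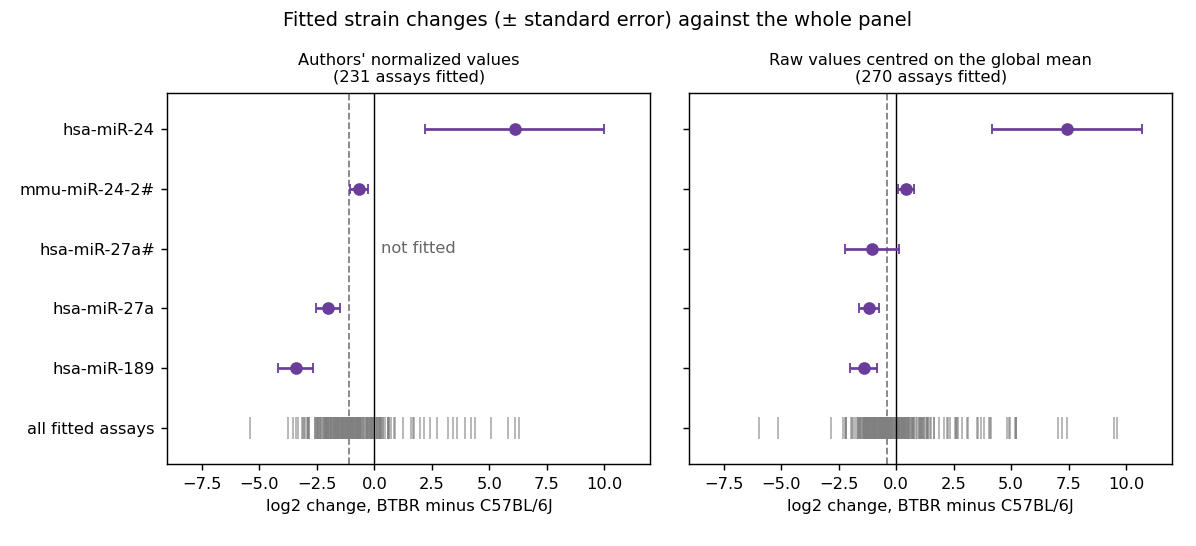
Fitted log2 changes, BTBR minus C57BL/6J (horizontal axis), of the family assays with standard errors, on the authors' normalized values (left) and on raw thresholds centred on the global mean (right), with a tick for every fitted assay and a dashed line at the panel median. The change of miR-189 is -3.43 on the left and -1.41 on the right, and that of miR-24-2# changes sign.

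The authors' deposited table keeps 40 as a value, and the family's largest entries there rest on undetermined wells. The authors' deposited table gives hsa-miR-24 as 1517-fold higher in BTBR, from mean thresholds of 20.48 cycles in BTBR and 31.05 in C57BL/6J, where the undetermined well is counted in the mean. For hsa-miR-27b the authors' deposited table gives a difference of mean thresholds, BTBR minus C57BL/6J, of -21.31 cycles, for hsa-miR-23a one of 19.46 and for rno-miR-24-1# one of 18.03. Each of these 3 is the distance between measured wells and 40. For hsa-miR-27a and hsa-miR-189, read in every sample, the authors' deposited table gives 2.03 and 3.43 cycles. A positive sign stands for less RNA in BTBR. The adjusted p-values of that table, from its unnamed test, are 0.103 for hsa-miR-27a and 0.112 for hsa-miR-189. Neither would pass the limit set here for limma calls, although both assays passed it in limma on the same normalized values.

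The assays that tracked the family members across the 6 samples were sought among the 236 others read throughout, on the global mean scale (Pearson r, given as a description). Closest to hsa-miR-27a were hsa-miR-30c (r = 0.974), hsa-miR-411 (0.973) and hsa-miR-99b (0.969). From its own cluster only hsa-miR-27a# (0.12) and mmu-miR-24-2# could be compared, since the other assays, miR-23a and miR-24 among them, were not read throughout. Closest to hsa-miR-189 were hsa-miR-15a (0.974), hsa-miR-301 (0.971) and hsa-miR-30e (0.967). Among themselves miR-27a and miR-189 had r = 0.88, although they come from different chromosomes, while mmu-miR-24-2# had -0.20 with its cluster mate miR-27a and -0.04 with miR-189. Closest to hsa-miR-27a# were MMU-MIR-1188 (0.903), mmu-let-7c-1# (0.750) and hsa-miR-143 of pool B (0.731). These coefficients share samples, strain difference and scaling.

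Closest to mmu-miR-24-2# were mmu-miR-451 (r = 0.968), hsa-miR-146b (0.927) and hsa-miR-744 (0.893). The miRNA miR-451 is the defining miRNA of red blood cells. On the global mean scale its thresholds were 20.79, 20.58 and 19.67 cycles in BTBR and 20.53, 21.00 and 21.58 in C57BL/6J, earliest in BTBR replicate 3, as was miR-24-2# (22.85, 22.97 and 22.27 cycles in BTBR, and 22.79, 23.20 and 23.38 in C57BL/6J). Of the 3 red blood cell assays, 2 were read in every BTBR sample and 1 in every C57BL/6J sample: hsa-miR-486 was read in BTBR alone and HSA-MIR-144 in no sample. Their part in the values of miR-24-2# was not tested.

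Other miRNAs of the tissues in which the family is known were set beside it. Of 19 assays of vascular miRNAs, 8 were fitted on normalized values and 0 passed in limma (1 at an unadjusted p under 0.05), where 36.8% of the panel did, with a median change of -0.17, against -1.13 over all assays fitted. On the global mean scale 9 were fitted and their median was 0.29, on the other side of 0. On normalized values the largest changes were -2.47 (standard error 0.77) for hsa-miR-145, of vessel muscle cells, fitted without the undetermined BTBR replicate 1, and -0.79 (standard error 1.17) for hsa-miR-130a, which stood at -2.83 and 0.26 on the global mean scale, so that the sign of miR-130a turned. The endothelial hsa-miR-126 stood at 0.58 (standard error 0.62) on normalized values. Of 9 myelin and oligodendrocyte assays 5 were fitted, with a median of -2.36, and 2 passed as lower, a share near the 35.5% of the panel. These were hsa-miR-32 (-5.39, standard error 0.69, fitted without the undetermined C57BL/6J replicate 1) and hsa-miR-338-3p (-3.08, standard error 0.73). Each had a late BTBR well, 27.54 raw cycles in replicate 3 for miR-32 and 28.09 in replicate 1 for miR-338-3p. Normalized values above 29.19 stand at 40 and count as missing, and these late wells appear not to have entered the fit. In BTBR replicate 1 hsa-miR-27a#, at an earlier 27.07 raw cycles, already stood at 29.04. The call of miR-32 would then rest on BTBR replicates 1 and 2 and C57BL/6J replicates 2 and 3. On the global mean scale, which keeps the late wells, the changes were -5.96 (standard error 1.76) and -1.61 (standard error 0.77). No assay of the panel passed there, and the median of the 6 fitted was -1.34. The neuronal hsa-miR-128a has a seed that shares a run of 6 bases with that of miR-27, as its RefSeq sequence shows, the capitals marking the seed.
mmu-miR-128-3p: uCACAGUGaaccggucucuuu
It was read in all samples and its change was -0.60 (standard error 0.35) on normalized values and -1.18 (standard error 0.42) on the global mean scale, with no call on either.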

How the data were processed

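Total RNA (100 ng) from prefrontal cortex was reverse transcribed, pre-amplified and read on a TaqMan OpenArray rodent panel, per the labels' protocols. The authors deposited raw cycle thresholds for 750 miRNA assays and 96 control lines, and no source used here names the instrument software. The authors also deposited quantile-normalized thresholds of 306 assays, per the file headers. Their further steps were inferred: treating raw readings under 10 cycles as undetermined, keeping assays read in at least 3 samples (340), ranking with 40 as a value and setting results above 29.19 to 40. For the 306 assays listed this gave the deposited values under 40 within 3.33e-09 cycles. The wells at 40 were not compared, 29.19 is the highest value kept, and the step from 340 to 306 assays was not rebuilt. A fold table that the authors deposited gives, by its column names, the strains' ratio, a difference of mean thresholds on the log2 scale, a test score and p-values. No source used here names its test.

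Here thresholds were multiplied by -1 (1 cycle taken as 1 log2 unit), with 40 and raw readings under 10 as missing. Assays with at least 2 readings in each strain were fitted with limma 3.58.1 in R 4.3.3 (lmFit, eBayes, strain as the single term), with Benjamini-Hochberg adjustment over all assays fitted and a threshold of 0.05. The fit was tested on simulated data with independent noise for each assay. These data held no shift of a whole sample, no normalization step and no outlying replicate, so the test does not vouch for the calls here. Each assay was run once per sample, so a reading has no technical error of its own, and 3 mice per strain limit precision. No source used here says how samples were laid out on arrays. Family members, the lists of vascular, myelin and seed-related miRNAs and the cell markers were chosen with earlier results of these data known. All family assays are named, with the 3 assays most correlated with each member read throughout, and of each list the assays that passed and up to 2 with the largest change. The assays hsa-miR-126, hsa-miR-9, hsa-miR-124#, mmu-miR-124a, hsa-miR-486 and HSA-MIR-144 were named outside this rule. Alternatives were other scalings, other treatments of 40 and of late readings, other filters, a replicate block and leaving out each sample.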

Additional observations from a re-analysis of the deposited data

How the results depend on the processing

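The number of assays past the threshold on normalized values, 85 of 231, was 0 on raw thresholds with the global mean (within pools or not), the global median, the median of the U6 rRNA spots or no scaling, and 2 with normalized values centred on sample medians. At an unadjusted p under 0.05 those fits with 0 held 71 and 78 (global mean over the panel and within pools), 77, 61 and 52 assays. Leaving out 1 sample gave 0 to 101, with 0 without BTBR replicate 1 (89 unadjusted) or C57BL/6J replicate 3 (99 unadjusted), 3 without C57BL/6J replicate 2 and 8 without BTBR replicate 2. With a replicate block, the number being only a shared label, 49 of 226 passed; same-numbered samples correlated in their deviations at 0.02, 0.41 and -0.10. The change of mmu-miR-24-2#, -0.67 on normalized values, was 0.43 with the global mean, 0.58 with the global mean within pools, 0.18 with the global median, 0.50 with U6 rRNA, 0.83 with no scaling and 0.51 with normalized values centred on sample medians. The change of hsa-miR-27a# on the global mean scale, -1.06, ran from -2.23 to 0.04 with 1 sample left out, the highest without BTBR replicate 3. The gap of miR-189 to miR-24-2# was 2.77 on normalized values. Changes of miR-27a and miR-189 kept a negative sign under every alternative run. No cause of these moves was tested. Of miR-27a# and miR-23b, scatter and missing readings limit what can be said.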
